A study of Homo sapiens with 12 samples.

Results

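The 71 clustered histone genes are the rows of the gene expression table that are protein coding and whose symbol starts with HIST1H to HIST4H, out of 58735 genes in all. They comprise 6 H1, 17 H2A, 18 H2B, 15 H3 and 15 H4 genes. By the deposited coordinates, 55 lie in the HIST1 cluster on chromosome 6, 12 in HIST2 and 3 in HIST3 on chromosome 1, and the single HIST4 gene is on chromosome 12. Another 19 histone-named rows of other biotypes are not members. RNA was sequenced from HepaRG, a human hepatic cell line of wild-type genotype, in 4 groups of 3 libraries. PA+OA cells received 400 µM deuterium-labelled palmitate together with 200 µM oleate for 4 h. PA+BMS cells were kept in BMS-309403 (50 µM), which blocks the lipid carrier FABP4, for 24 h, with the 400 µM palmitate present for 4 h. PA cells had the 400 µM palmitate for 4 h, and control cells were left untreated. No group received oleate or BMS-309403 alone, so PA+OA differs from PA both in oleate and in total fatty acid. The labels do not say whether the 3 libraries of a group came from separate cultures, so p-values measure the spread between these libraries, which may be technical.

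Histones are the proteins around which DNA is wound. H2A, H2B, H3 and H4 form the core of the nucleosome, and H1 binds the DNA between cores. Most clustered histone genes are made in S phase, have no introns, and end in a conserved stem-loop that the stem-loop binding protein SLBP holds, in place of a poly(A) tail. Some of them also have a poly(A) signal downstream of the stem-loop, and transcripts that run on to it carry a poly(A) tail, which has been described in cells that differentiate or stop dividing. This bears on every value here, because the libraries were made from RNA bound to poly-T beads, per the labels' protocols. A higher level below is therefore a higher level of histone RNA in a poly-T selected library, and more transcription, longer-lived RNA and a larger polyadenylated share cannot be told apart. Nor, in RNA from whole cultures, can more cells that make a message and more of it per cell.

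The stem-loops are shown because they mark where a histone message normally ends, and the annotated models of 32 members run through one. The 6-base stem arms are in capitals and the 4-base loop in lower case, copied 5′ to 3′ from the GENCODE 29 transcripts. The first form below is shared by 17 members, among them HIST1H2AC, HIST2H2BE and HIST3H2A, and the form of HIST1H2BD, HIST1H2BC and HIST1H2BF, found in 5 members, differs in the loop. HIST1H4H and HIST1H4E carry a form found in 5 members, all H4 genes, and HIST1H4I one found in 3 H4 genes.

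HIST1H2AC and 16 others: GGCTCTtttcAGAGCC
HIST1H2BD and 4 others: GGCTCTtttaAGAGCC
HIST1H4H and 4 others: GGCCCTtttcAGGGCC
HIST1H4I and 2 others: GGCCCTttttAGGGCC

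The deposited values are FPKM (fragments per kilobase of gene model), scaled to a total for each library that was not its recovered read count. Median-of-ratios factors of the values were equal, 1.01, in all 12 libraries, so they were already scaled between libraries. Low values were whole multiples of 1 read, and recovered depth was 16059128 to 19971190 reads per library. PA+OA replicate 1 and PA+BMS replicate 3 lay at opposite ends of the first principal component of all tested genes, at -54.6 and 51.5, and this component held 54.4% of the variance. The summed levels, the counts of calls and some members are therefore given with and without PA+OA replicate 1. The lists of related genes are given only with it. Of 14 hepatocyte markers, 13 stayed under 1 FPKM in every library, ALB and FGB being at 0 throughout, while CPS1 carried the list, whose sum was 51.3 to 81.5 FPKM in PA+OA, 95.7 to 139 in PA+BMS, 63.5 to 83.0 in PA and 118 to 147 in control. Of the 8 hepatoblast or bile duct markers, KRT7, KRT8 and KRT18 were high, at 96.5 FPKM or more in every library, and the other 5 stayed under 1 FPKM. Their sum was 955 to 1739 FPKM in PA+OA, 372 to 427 in PA+BMS, 1029 to 1286 in PA and 872 to 1051 in control, and the part of these lists in the histone results was not tested. The macrophage or leukocyte list, 4 of whose 5 genes stayed under 1 FPKM, summed to 2.26 to 2.50 FPKM in PA+OA and 0.770 to 2.38 elsewhere. The endothelial list, also with 4 of 5 under 1 FPKM, summed to 0.337 to 0.548 FPKM in PA+OA, 0.386 to 0.468 in PA+BMS, 1.09 to 1.36 in PA and 1.44 to 1.92 in control. The stellate or fibroblast list, with 5 of 8 genes under 1 FPKM, summed to 76.5 to 77.5 FPKM in PA+OA and 77.6 to 94.1 elsewhere.

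Summed over all 71 genes, the histone level was 784, 789 and 785 FPKM in PA+OA, 246, 240.2 and 169.5 in PA+BMS, 277, 323 and 293 in PA and 272, 225 and 223 in control. Every PA+OA library was above every other library, by 2.64-fold over PA in the means (log2 ratio 1.40). Leaving out PA+OA replicate 1 gave the same log2 ratio, 1.40. As RPM, recovered reads scaled to the library total with no division by gene length, the members took 459 to 630.0 in PA+OA, 129 to 190.1 in PA+BMS, 163 to 195 in PA and 150.3 to 187 in control, and the PA+OA libraries were again apart from the other 9.

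The 5 classes were all higher in PA+OA than in the other 9 libraries. In summed FPKM, H2B had the largest ratio to PA, with 445, 439 and 487 FPKM in PA+OA against 134, 160.2 and 144 in PA, a 3.13-fold difference of means. H4 followed at 2.74-fold (57.2 ± 4.38 FPKM in PA+OA, 20.9 ± 1.0 in PA, SD, n = 3 each) and H2A at 2.69-fold (136 ± 8.23 in PA+OA, 50.6 ± 3.89 in PA). H3, the class with the least signal, was at 24.3, 29 and 23.4 FPKM in PA+OA and 7.12, 11.3 and 12.7 in PA, 2.47-fold. H1 had the smallest ratio, 1.58-fold, with 119, 117 and 94.5 FPKM in PA+OA and 63.6, 77.9 and 67.7 in PA. As RPM the order of H2A and H2B is not seen, with means of 169 ± 33.6 in PA+OA and 46.8 ± 2.44 in PA for H2A and 243 ± 44.3 in PA+OA and 67.0 ± 7.08 in PA for H2B. These are sums over genes chosen with results known, so they are given without a p, and differences between class ratios were not tested. Without PA+OA replicate 1 the log2 ratios to PA were 1.66 for H2B, 1.43 for H2A, 1.43 for H4, 1.34 for H3 and 0.60 for H1.

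**Figure D1:**
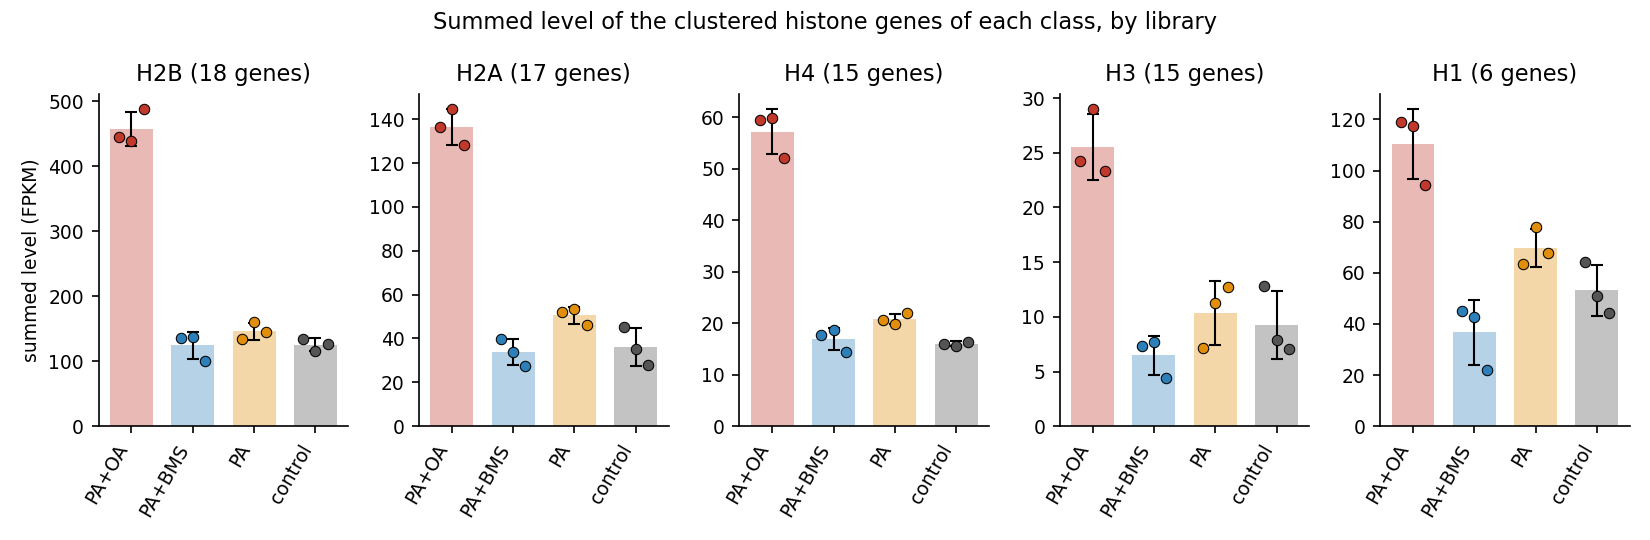
Summed FPKM of each histone class (vertical axes, starting at 0, 1 scale per panel) in PA+OA, PA+BMS, PA and control. Bars are group means, whiskers the SD and points the 3 libraries; in every panel the 3 PA+OA points lie above the other 9, and H2B reaches 438.5 to 487 FPKM in PA+OA.

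A single gene, HIST1H2BK, made up 44.1 ± 3.09% of the summed histone FPKM in PA+OA, 46.2 ± 1.76% in PA+BMS, 41.3 ± 1.31% in PA and 43.6 ± 2.42% in control (SD, n = 3). Its model holds the coding sequence only, so its level per length is set by few bases. Without it the other 17 H2B genes summed to 97.0, 116 and 119 FPKM in PA+OA, 25.7, 28.0 and 19.2 in PA+BMS, 23.8, 24.6 and 21.2 in PA and 20.4, 19.2 and 23.4 in control. The ratio of PA+OA to PA was then 4.77-fold, larger than with it. H1 took 14 ± 1.73% of the histone FPKM in PA+OA, 16.4 ± 2.92% in PA+BMS, 23.4 ± 0.637% in PA and 22.1 ± 1.87% in control, so its share was lower in PA+OA although its level was higher.

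The question of PA+OA against PA is what oleate beside palmitate changed. Genes were tested with limma on log2(FPKM + 1) over all 4 groups, two-sided, where at least 3 libraries reached 1 FPKM, and were called at a Benjamini-Hochberg adjusted p under 0.05. The log2 changes below are on that scale, which understates changes of genes with low levels. The filter left 11856 genes, 4.01% of them called higher and 3.91% lower in PA+OA than in PA. Of the members it left 30, but 10 of these reached 1 FPKM in 3 libraries only through their PA+OA libraries, so the filter itself favours a higher level in PA+OA. The count that can be read is therefore over the 20 that pass in the other 9 libraries alone: 12 were called higher and none lower when only genes passing there were tested, against 3.55% of 11514 genes called higher. These 12 are all 6 H2B genes, 3 of 7 H2A, 2 of 2 H3, 1 of 4 H4 and 0 of 1 H1. With the usual filter the 30 gave 19 higher and 0 lower, and no member was lower at an unadjusted p under 0.05 or with voom on recovered reads, which called 18 higher. With no filter at all, 26 of the 60 members with a read were called higher, against 1.49% of 30696 genes. Without PA+OA replicate 1, and with the same 30 members tested, 20 were called higher. Where the filter was applied again after a library was left out, 13 of 22 members were called without PA+OA replicate 1, 10 of 21 without replicate 2 and 11 of 23 without replicate 3.

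**Figure D2:**
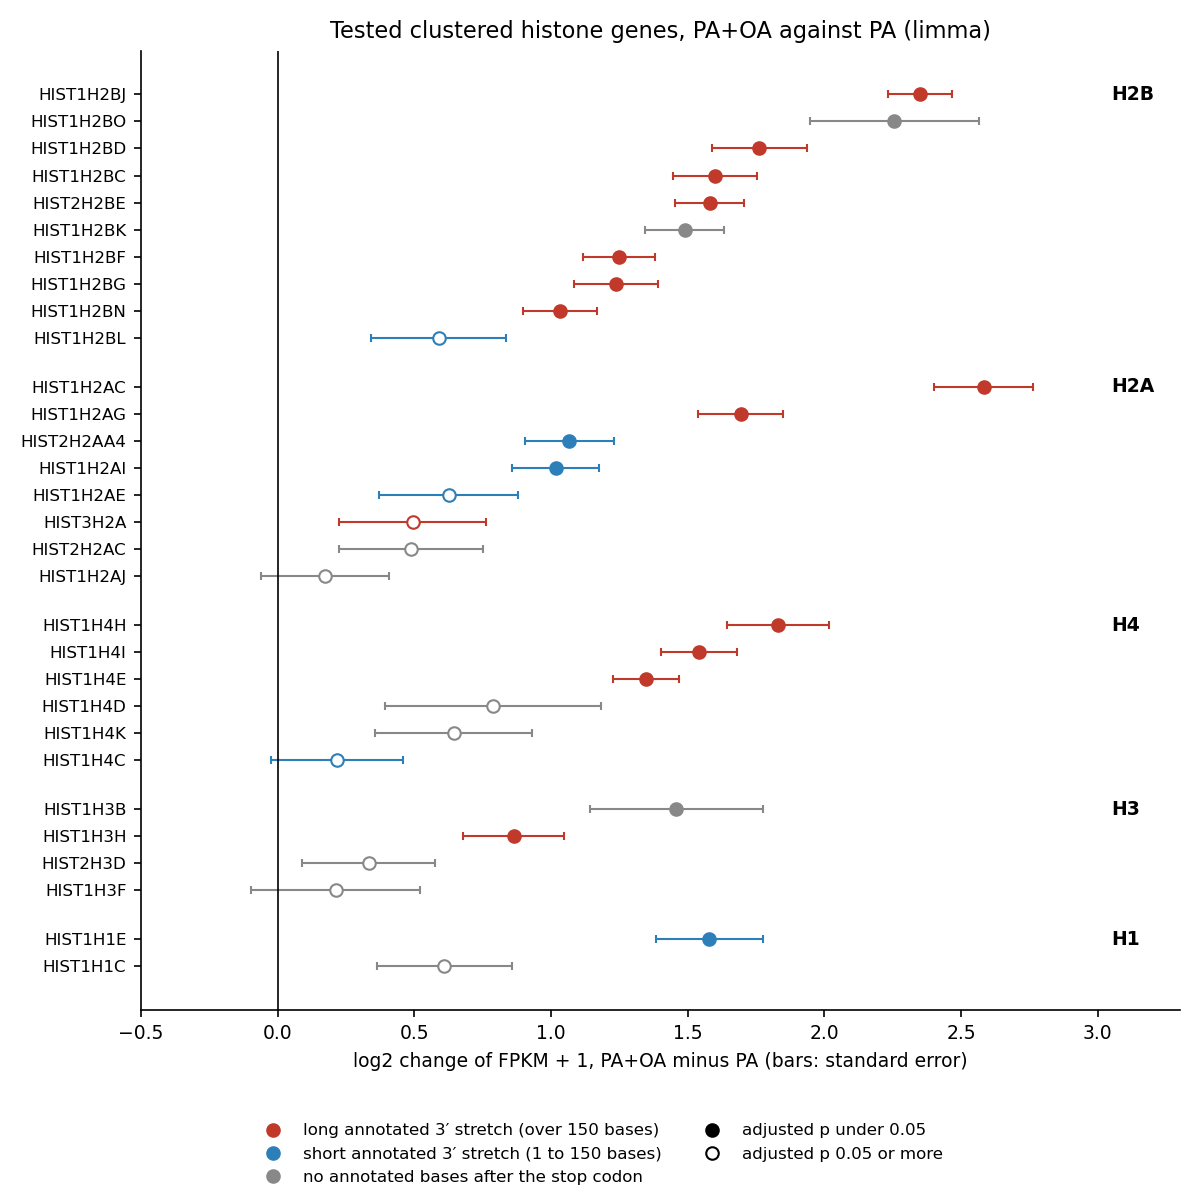
The log2 change of FPKM + 1 in PA+OA minus PA (horizontal axis) with its standard error for the 30 tested members, grouped by class. Filled points passed an adjusted p under 0.05, and colours give how many bases are annotated after the stop codon. All 30 points lie at or right of 0.17, but 10 of these members passed the filter only through PA+OA, so the filter favours that side.

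Among the H2B genes, HIST1H2BK had the highest level of all members. It is on chromosome 6 (chr6:27146418-27146798, minus strand, GRCh38) and was at 348, 322 and 369 FPKM in PA+OA, 111, 109 and 81.7 in PA+BMS, 110.2, 136 and 123 in PA and 114, 95.7 and 103 in control. The 3 PA+OA libraries stood clear of the other 9, 2.82-fold above PA (log2 change 1.49, SE 0.14, adjusted p = 0.000108). HIST1H2BJ (chr6:27125897-27132750, minus strand) was at 36.9, 43.2 and 40.1 FPKM in PA+OA, 5.93, 5.52 and 5.94 in PA+BMS, 7.37, 7.81 and 6.04 in PA and 4.38, 5.59 and 5.37 in control. It had the smallest p of the members (log2 change 2.35, SE 0.12, adjusted p = 5.19e-07), and its PA+OA mean was 5.66-fold that in PA. HIST1H2BD (chr6:26158146-26171349, plus strand) was at 24.0, 28.9 and 31.0 FPKM in PA+OA against 6.73, 8.38 and 7.46 in PA, with 5.21 to 9.45 in PA+BMS and 6.88 to 8.20 in control (log2 change 1.76, SE 0.17, adjusted p = 0.000115). Its model overlaps a non-coding gene and a pseudogene that stayed under 1 FPKM, and reads there may be shared.

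HIST1H2BO, another coding-only model, was at 15.2, 19.4 and 18.1 FPKM in PA+OA, 4.33, 4.28 and 1.19 in PA+BMS, 3.77, 2.69 and 2.31 in PA and 2.43, 1.34 and 2.99 in control. Its 3 PA+OA libraries were all above 15 FPKM and the other 9 all under 5, and PA+BMS replicate 3 was the lowest (log2 change over PA 2.26, SE 0.31, adjusted p = 0.00119). HIST2H2BE, the H2B gene of the HIST2 cluster on chromosome 1 (chr1:149884459-149886652, minus strand), was at 6.64, 7.98 and 9.40 FPKM in PA+OA against 1.88, 1.81 and 2.30 in PA, with 2.50 to 3.19 in PA+BMS and 2.08 to 2.36 in control (log2 change 1.58, SE 0.13, adjusted p = 3.50e-05). HIST1H2BC was at 4.03, 5.25 and 6.26 FPKM in PA+OA against 1.29, 0.940 and 0.843 in PA, again with no overlap (1.60, SE 0.15, adjusted p = 0.000105). All 6 of these H2B genes, 5 on chromosome 6 and 1 on chromosome 1, kept their call whichever library was left out.

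The other tested H2B genes passed the filter only through PA+OA, so their values are given as a description. HIST1H2BF was at 1.88, 2.04 and 2.07 FPKM in PA+OA and 0.0979 to 0.590 in the other 9 libraries, HIST1H2BG at 1.38, 2.04 and 2.17 against 0.0764 to 0.570, and HIST1H2BN at 1.67, 2.01 and 2.73 against 0.404 to 0.598. HIST1H2BN spans HIST1H2AK and HIST1H2AL in the annotation, so its reads may include theirs. HIST1H2BL was at 2.30, 1.40 and 1.51 FPKM in PA+OA and 0 to 1.08 elsewhere, and was not called.

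**Figure D3:**
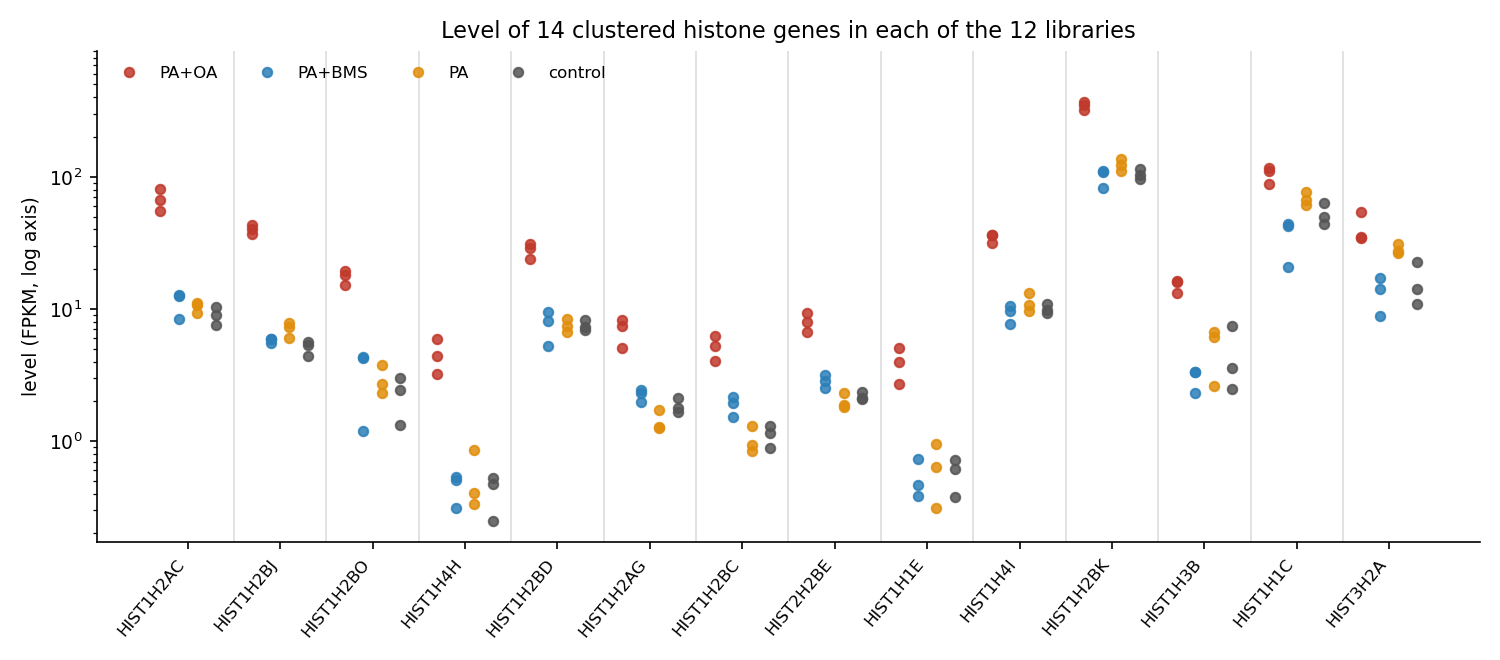
FPKM on a log axis (vertical) of 14 members in each of the 12 libraries, with PA+OA, PA+BMS, PA and control side by side for each gene. Drawn are the 12 tested members with the largest log2 change over PA, with HIST1H1C and HIST3H2A added. HIST1H4H and HIST1H1E among them passed the filter only through PA+OA. HIST1H2BK is highest, at 322 to 369 FPKM in PA+OA. For all 14 genes the 3 PA+OA points lie above the other 9, which picking genes on these same values favours. Of the 60 members with a read, 33 separated in this way, against 3.53% of 30696 genes with a read.

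The largest log2 change of any member was that of HIST1H2AC, which encodes a replication-dependent H2A (chr6:26124145-26139116, plus strand). It was at 54.7, 81.4 and 67.1 FPKM in PA+OA, 12.7, 12.5 and 8.34 in PA+BMS, 10.7, 11.1 and 9.34 in PA and 10.4, 9.02 and 7.56 in control, so every PA+OA library was far above the highest of the other 9. The PA+OA mean was 6.54-fold that in PA (log2 change 2.58, SE 0.18, adjusted p = 1.22e-05) and 7.17-fold without PA+OA replicate 1. HIST1H2AG was at 5.04, 8.29 and 7.46 FPKM in PA+OA, 2.31, 2.45 and 1.99 in PA+BMS, 1.73, 1.26 and 1.28 in PA and 1.78, 2.14 and 1.65 in control, a 4.88-fold difference over PA (log2 change 1.69, SE 0.16, adjusted p = 7.10e-05). HIST1H2AI was at 3.28, 4.18 and 4.30 FPKM in PA+OA, 1.45, 1.75 and 1.30 in PA+BMS, 1.31, 1.56 and 1.40 in PA and 3.06, 3.26 and 1.79 in control. It was called over PA (1.02, SE 0.16, adjusted p = 0.00250), although PA+OA lay just above control, where its level was higher than in PA. Of its 150-base coding windows, 75.9% are found in another member, so its reads may be split.

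HIST3H2A, on chromosome 1 (chr1:228456979-228457873, minus strand), had another pattern. It was at 53.9, 34.7 and 34.8 FPKM in PA+OA, 17.0, 14.2 and 8.78 in PA+BMS, 26.3, 31.1 and 27.7 in PA and 22.5, 14.2 and 10.9 in control, so PA+OA replicate 1 stood above its partners and the PA libraries were above all of PA+BMS and control. Its change over PA was not called (0.49, SE 0.27, adjusted p = 0.338), and without PA+OA replicate 1 it was 0.29 with an adjusted p of 0.512. HIST1H2AE was at 4.54, 4.92 and 3.32 FPKM in PA+OA and 3.29, 2.96 and 1.27 in PA (log2 change 0.63, adjusted p = 0.172), the lowest PA+OA library just above the highest of PA. HIST2H2AC was at 7.44, 5.54 and 4.87 FPKM in PA+OA and 5.68, 3.40 and 3.0 in PA, and the groups overlapped (0.49, adjusted p = 0.334). HIST1H2AJ was at 1.23 to 1.47 FPKM in PA+OA, within the 0.605 to 1.70 of PA, and 77.9% of its coding windows are shared. HIST2H2AA4 passed only through PA+OA, at 1.52, 1.01 and 1.22 FPKM there against 0 to 0.516 elsewhere, and its coding windows are all shared with HIST2H2AA3, so the 2 genes cannot be told apart.

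Of the H4 genes, HIST1H4I carried most of the signal. It was at 36.1, 36.0 and 31.4 FPKM in PA+OA, 10.5, 9.66 and 7.67 in PA+BMS, 9.71, 10.8 and 13.3 in PA and 11, 9.74 and 9.37 in control (chr6:27138588-27139881, plus strand), a 3.07-fold difference of PA+OA over PA (log2 change 1.54, SE 0.14, adjusted p = 6.43e-05). HIST1H4H and HIST1H4E passed only through PA+OA. HIST1H4H was at 3.20, 5.89 and 4.41 FPKM in PA+OA against 0.250 to 0.858 in the other 9 libraries, and HIST1H4E at 1.46, 2.07 and 1.84 against 0.0805 to 0.271.

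The remaining tested H4 genes were not called over PA. HIST1H4C was at 5.76, 2.61 and 3.15 FPKM in PA+OA and 4.68, 2.08 and 2.69 in PA, 1 high library in each group, and its log2 change of 0.22 turned to -0.050 without PA+OA replicate 1. HIST1H4K was at 9.30, 4.74 and 7.61 FPKM in PA+OA and 4.79, 4.25 and 3.38 in PA (0.64, adjusted p = 0.224), and its coding windows are all shared with HIST1H4J. HIST1H4D was at 0.211, 1.82 and 2.20 FPKM in PA+OA and 0, 0 and 1.13 in PA, with an adjusted p of 0.292 over all libraries and 0.0397 without PA+OA replicate 1, the 1 member whose call was gained by leaving that library out.

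The H3 genes had less signal. HIST1H3B was at 16.2, 15.9 and 13.2 FPKM in PA+OA, 3.31, 3.32 and 2.33 in PA+BMS, 2.62, 6.16 and 6.70 in PA and 7.37, 3.58 and 2.48 in control, so PA+OA stood apart while PA and control each held 1 library away from the others (log2 change over PA 1.46, SE 0.32, adjusted p = 0.0144). HIST1H3H was at 3.47, 5.88 and 5.76 FPKM in PA+OA against 2.23, 2.58 and 1.99 in PA, 1.39 to 2.74 in PA+BMS and 2.62 to 2.82 in control (log2 change 0.86, SE 0.19, adjusted p = 0.0136). Both calls were near the limit: leaving out PA+OA replicate 2 or PA replicate 1 ended that of HIST1H3B, with an adjusted p of up to 0.0605, and each of 4 libraries (PA+OA replicates 2 and 3, PA replicates 1 and 3) ended that of HIST1H3H, with an adjusted p of up to 0.0675. HIST1H3F, at 0, 1.52 and 0.770 FPKM in PA+OA and 0.728, 0.293 and 0.285 in PA, and HIST2H3D, at 1.60, 1.66 and 0.898 and 0.291, 0.880 and 1.71, passed only through PA+OA and overlapped between the groups.

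The H1 class rested on 1 gene. HIST1H1C, a somatic linker histone (chr6:26055787-26056428, minus strand), was at 116, 111 and 89.0 FPKM in PA+OA, 44.1, 42.4 and 20.8 in PA+BMS, 61.6, 76.7 and 67.1 in PA and 63.5, 50.0 and 43.7 in control. PA+OA lay above all other libraries, but its 1.54-fold difference over PA was not called (log2 change 0.61, SE 0.25, adjusted p = 0.171). HIST1H1E, another somatic linker histone, was at 2.71, 5.05 and 3.99 FPKM in PA+OA against 0.311 to 0.952 in the other 9 libraries, and passed the filter only through PA+OA, so its values are given as a description.

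Of all 71 members, whatever their level, 60 had a read. In 33 of them all 3 PA+OA libraries lay above all 9 others, against 3.53% of the 30696 genes with a read. The share was not computed for genes of a like level. By class the 33 were 14 of 18 H2B, 8 of 17 H2A, 5 of 15 H4, 4 of 15 H3 and 2 of 6 H1 genes. The annotated 3′ end of a member went with this count. Of the 25 members whose model has over 150 annotated bases after the stop codon, 21 separated, of the 11 with a shorter stretch 6, and of the 35 whose model ends at the stop codon 6. Members called over PA varied in how far their model runs past the stem-loop, with 1729 bases in HIST2H2BE, 1128 in HIST1H2AC, 212 in HIST1H4I, 116 in HIST1H2BC and 39 in HIST1H2BD. The last 2 have more than 1 annotated transcript. Their longest stretches after the stop codon, 272 bases in HIST1H2BC and 384 in HIST1H2BD, belong to a transcript other than the one with this stem-loop. No stem-loop match was found in the model of HIST1H2BJ. Members with a long stretch also have more reads: 11 of the 35 coding-only members had none at all. Among members with at least 50 reads over the 12 libraries, 20 of 22 with a long stretch separated, 5 of 6 with a short one and 5 of 12 with none. With at least 200 reads these were 15 of 17, 3 of 4 and 4 of 6. These cuts count the PA+OA reads, so a high level in PA+OA helps a member to pass them. The share over all genes was not computed at these cuts, and the counts are a description. Among the 20 members that pass the filter outside PA+OA, 8 of 9 with a long stretch were called over PA, 1 of 3 with a short one and 3 of 8 with none. HIST1H2BK and HIST1H2BO belong to the last kind, so a model with no annotated 3′ stretch did not keep a gene from being called. The differences between these counts were not tested, and gene length, depth and class move with them. GC content moves with them too, with a median of 47.3% for models with a long stretch, 59.6% with a short one and 60.6% with none. With the trend of change on GC and length removed, 20 of the 30 tested members were called over PA. Those 30 include the 10 that pass only through PA+OA. In that setting neither the share over all genes nor the counts by 3′ stretch were computed, so the part of GC content in these counts was not tested.

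**Figure D4:**
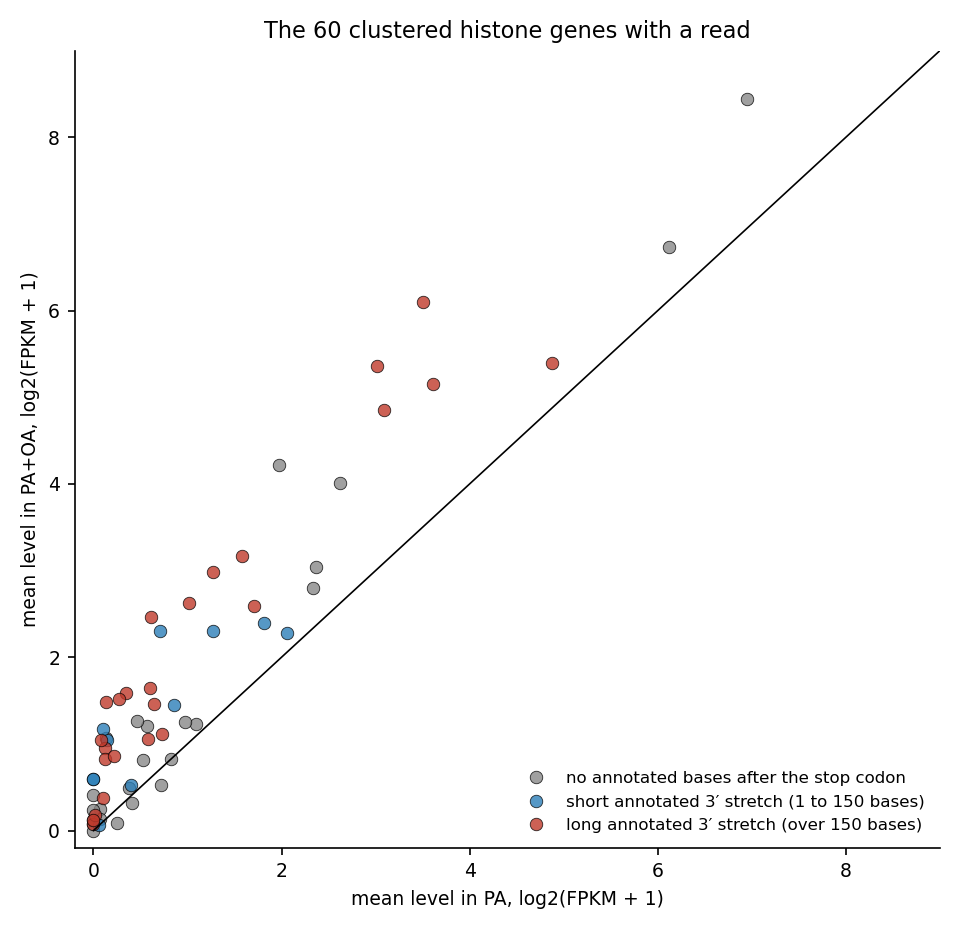
Mean level in PA+OA (vertical) against mean level in PA (horizontal), both as log2(FPKM + 1), for the 60 members with a read, coloured by the annotated bases after the stop codon. The line marks equal levels. Most of the points for long 3′ stretches lie well above the line, and coding-only models (grey) are found both at the line and far above it, HIST1H2BK being the point at the top right.

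Many H2A and H2B genes stand head to head and share a promoter region. RefSeq promoter windows (250 bases before to 50 after the start, GRCh38.p14) were found for 61 members. The CCAAT box, letters CCAAT, was present on either strand in 83.6% of them against 35.7% of the 27305 promoters in the table. The TATA box, letters TATAAA, was in 65.6% against 12%. The octamer ATTTGCAT, which the factor OCT1 binds in H2B promoters, was in 42.6% against 1.80%. Windows of head-to-head genes overlap, so 1 site can count for 2 members. The windows of the 4 members below are shown because these genes moved together in PA+OA from 2 chromosomes, with the letters of the 3 motifs in capitals on either strand.

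HIST1H2BK, chr6:27146809-27147108, minus strand: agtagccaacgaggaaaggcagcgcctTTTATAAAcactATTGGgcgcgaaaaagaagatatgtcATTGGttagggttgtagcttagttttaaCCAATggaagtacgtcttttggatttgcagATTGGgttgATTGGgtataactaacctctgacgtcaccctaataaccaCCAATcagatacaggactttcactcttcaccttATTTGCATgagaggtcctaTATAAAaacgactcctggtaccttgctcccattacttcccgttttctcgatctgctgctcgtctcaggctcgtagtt
HIST1H2BJ, chr6:27132746-27133045, minus strand: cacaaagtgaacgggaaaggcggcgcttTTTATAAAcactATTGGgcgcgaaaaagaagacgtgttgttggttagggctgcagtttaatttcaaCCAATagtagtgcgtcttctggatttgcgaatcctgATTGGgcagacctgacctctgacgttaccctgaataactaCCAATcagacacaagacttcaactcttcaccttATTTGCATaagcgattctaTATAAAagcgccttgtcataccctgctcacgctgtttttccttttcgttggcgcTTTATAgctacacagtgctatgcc
HIST2H2BE, chr1:149886633-149886932, minus strand: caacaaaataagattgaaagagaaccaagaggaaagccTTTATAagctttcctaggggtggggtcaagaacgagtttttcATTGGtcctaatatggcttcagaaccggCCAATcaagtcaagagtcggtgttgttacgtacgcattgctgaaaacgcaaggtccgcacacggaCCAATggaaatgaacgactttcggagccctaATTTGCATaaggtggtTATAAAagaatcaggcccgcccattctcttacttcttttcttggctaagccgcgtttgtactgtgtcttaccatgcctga
HIST1H2AC, chr6:26123922-26124221, plus strand: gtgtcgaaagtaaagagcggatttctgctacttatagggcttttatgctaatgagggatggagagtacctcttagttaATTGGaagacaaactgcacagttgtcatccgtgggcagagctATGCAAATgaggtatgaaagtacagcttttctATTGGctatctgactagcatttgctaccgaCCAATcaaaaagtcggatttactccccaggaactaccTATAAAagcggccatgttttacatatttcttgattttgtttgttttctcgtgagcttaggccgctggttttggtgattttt

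In the 3 H2B windows the octamer starts at -47 in HIST1H2BJ and at -46 in HIST1H2BK and HIST2H2BE, counted from the start site, followed by a TATA box. HIST1H2AC has it on the other strand at -130. Other called members had the octamer letters, such as HIST1H2AG and HIST1H2BC, or lacked them, such as HIST1H2BD and HIST1H2AI. The letters were also present in HIST1H2AE and HIST1H2AJ, not called, and in HIST1H2AA and HIST1H2BB, which had no reads. Whether any motif goes with the change was not tested. These matches are letters in a window, and no factor's binding was measured.

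The head-to-head layout gives pairs of genes that share most of their promoter window, and 5 such pairs had both members tested. In HIST1H2AC with HIST1H2BC, whose windows share 255 bases, and in HIST1H2AG with HIST1H2BJ, sharing 253, both were called over PA. In 1 pair only the H2B gene was called. HIST2H2BE, with a long 3′ stretch, had a log2 change of 1.58 and HIST2H2AC, coding only, one of 0.49, with 265 bases shared. The other 2 pairs, HIST1H2BG with HIST1H2AE and HIST1H2BL with HIST1H2AI, each hold a gene that passed the filter only through PA+OA, so no contrast is read from them. Whether the members of a pair differ was not tested.

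PA+OA against control shares the PA+OA libraries with the comparison above, and its values are given beside it. Among all genes tested, 17.5% were called higher and 18.8% lower, so calls were common in this contrast. Of the 20 members that pass outside PA+OA, 17 were called higher and none lower when only such genes were tested, where 16.8% of genes were called higher, and of all 30 tested members 26 were higher and 0 lower (0 lower also at an unadjusted p under 0.05 and with voom, which called 23 higher). With the filter applied again, 17 were called without PA+OA replicate 1 and 17 without replicate 2. HIST1H2AC had a log2 change of 2.77, SE 0.18, adjusted p = 1.21e-06, HIST1H2BJ 2.75, SE 0.12, adjusted p = 6.10e-08 and HIST1H2BK 1.72, SE 0.14, adjusted p = 1.01e-05. Of the members that pass outside PA+OA, 6 were called here and not over PA. They were HIST1H1C (1.0, adjusted p = 0.00940), HIST3H2A (1.35, adjusted p = 0.00303), HIST1H4K (1.42, adjusted p = 0.00324), HIST1H4C (1.09, adjusted p = 0.00537), HIST1H2AE (1.35, adjusted p = 0.00219) and HIST2H2AC (0.85, adjusted p = 0.0260). HIST2H2AC lost the call without PA+OA replicate 1, control replicate 1 or control replicate 2, with an adjusted p of up to 0.0919. HIST1H3H lost it without PA+OA replicate 2 or control replicate 3, with an adjusted p of up to 0.0590. The 4 members not called were HIST1H2AI (0.43, adjusted p = 0.0524), HIST1H2AJ (0.093, adjusted p = 0.772), HIST1H3F (-0.044, adjusted p = 0.921) and HIST1H4D (0.15, adjusted p = 0.774). The summed level of all members was 3.28-fold that in control.

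PA against control asks what palmitate alone changed. Among all genes 12.8% were called higher and 14.8% lower in PA, and of the 30 members 3 were higher and 1 lower. These calls all fall among the 20 members that pass the filter outside PA+OA. Over those 20 the share called higher is near that of all genes, so no result about the members is read from these counts. HIST1H2BJ was at 7.37, 7.81 and 6.04 FPKM in PA and 4.38, 5.59 and 5.37 in control, groups that do not overlap (log2 change 0.40, SE 0.12, adjusted p = 0.0293). HIST3H2A was at 26.3, 31.1 and 27.7 FPKM in PA and 22.5, 14.2 and 10.9 in control (0.85, SE 0.27, adjusted p = 0.0368), and HIST1H4C at 4.68, 2.08 and 2.69 in PA and 1.18, 1.04 and 1.38 in control (0.87, SE 0.24, adjusted p = 0.0235). HIST1H2AI was lower, at 1.31, 1.56 and 1.40 FPKM in PA and 3.06, 3.26 and 1.79 in control (-0.59, SE 0.16, adjusted p = 0.0215). All 4 calls were lost when 1 of several PA or control libraries was left out, 5 libraries each for HIST1H2BJ, HIST3H2A and HIST1H2AI and 3 for HIST1H4C. The number called higher then ran from 0, without control replicate 2 or 3, over 1, without PA replicate 1 or 2, to 5, without PA+OA replicate 1. The number called lower was 0 without PA replicate 1, 2 or 3 or control replicate 1 or 2. Summed over all members, PA was 1.24-fold control (log2 ratio 0.31), with no overlap between the groups, but with library totals set equal this ratio was 0.037.

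PA+BMS against PA asks what the inhibitor changed beside palmitate. Calls were most common here, 25.2% of genes higher and 29.4% lower in PA+BMS. The members stayed under both, with 3 higher and 3 lower of 30, all of them among the 20 that pass the filter outside PA+OA. HIST1H1C was at 44.1, 42.4 and 20.8 FPKM in PA+BMS and 61.6, 76.7 and 67.1 in PA (log2 change -0.99, SE 0.25, adjusted p = 0.00938), and HIST3H2A at 17.0, 14.2 and 8.78 in PA+BMS and 26.3, 31.1 and 27.7 in PA (-1.08, SE 0.27, adjusted p = 0.00927). These 2 kept their call whichever library was left out. HIST1H2AE was also lower, at 1.53, 0.606 and 0.891 FPKM in PA+BMS and 3.29, 2.96 and 1.27 in PA (-0.78, adjusted p = 0.0242). Higher were HIST1H2BC, at 1.51, 2.16 and 1.93 FPKM in PA+BMS and 1.29, 0.940 and 0.843 in PA (0.50, SE 0.15, adjusted p = 0.0185), HIST1H2AG, at 2.31, 2.45 and 1.99 in PA+BMS and 1.73, 1.26 and 1.28 in PA (0.43, adjusted p = 0.0359), and HIST2H2BE (0.36, adjusted p = 0.0325). The 3 higher calls and that of HIST1H2AE each depended on at least 4 libraries. The number called higher was 0 without PA+BMS replicate 2 or PA replicate 2 and 1 without PA+BMS replicate 1 or 3 or PA replicate 3.

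The H1 sum was 45.2, 42.9 and 22.1 FPKM in PA+BMS and 63.6, 77.9 and 67.7 in PA, a 0.526-fold ratio with no overlap, PA+BMS replicate 3 being lowest. The H2A sum was 39.7, 34.0 and 27.6 FPKM in PA+BMS and 51.9, 53.6 and 46.2 in PA, also without overlap. In RPM the H2A sums overlapped, at 32.6 to 50.8 in PA+BMS and 45.2 to 49.6 in PA. For H4 the ratio of 0.811-fold turned above 1 with library totals set equal (log2 0.075). These sums carry no test.

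PA+BMS against control, the fewest calls among the members, had 4.77% of all genes higher and 6.25% lower. No member was called higher by limma, with 1 at an unadjusted p under 0.05, HIST1H2BC, and none with voom. The 1 member called lower, HIST1H2AI, was at 1.45, 1.75 and 1.30 FPKM in PA+BMS and 3.06, 3.26 and 1.79 in control (-0.55, SE 0.16, adjusted p = 0.0459), and this call was lost when any of 10 of the 12 libraries was left out (all but PA+OA replicate 1 and control replicate 3), giving 0. Without PA+OA replicate 1 the number called higher was 1. The summed level was 0.912-fold that in control and the groups overlapped.

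**Figure D5:**
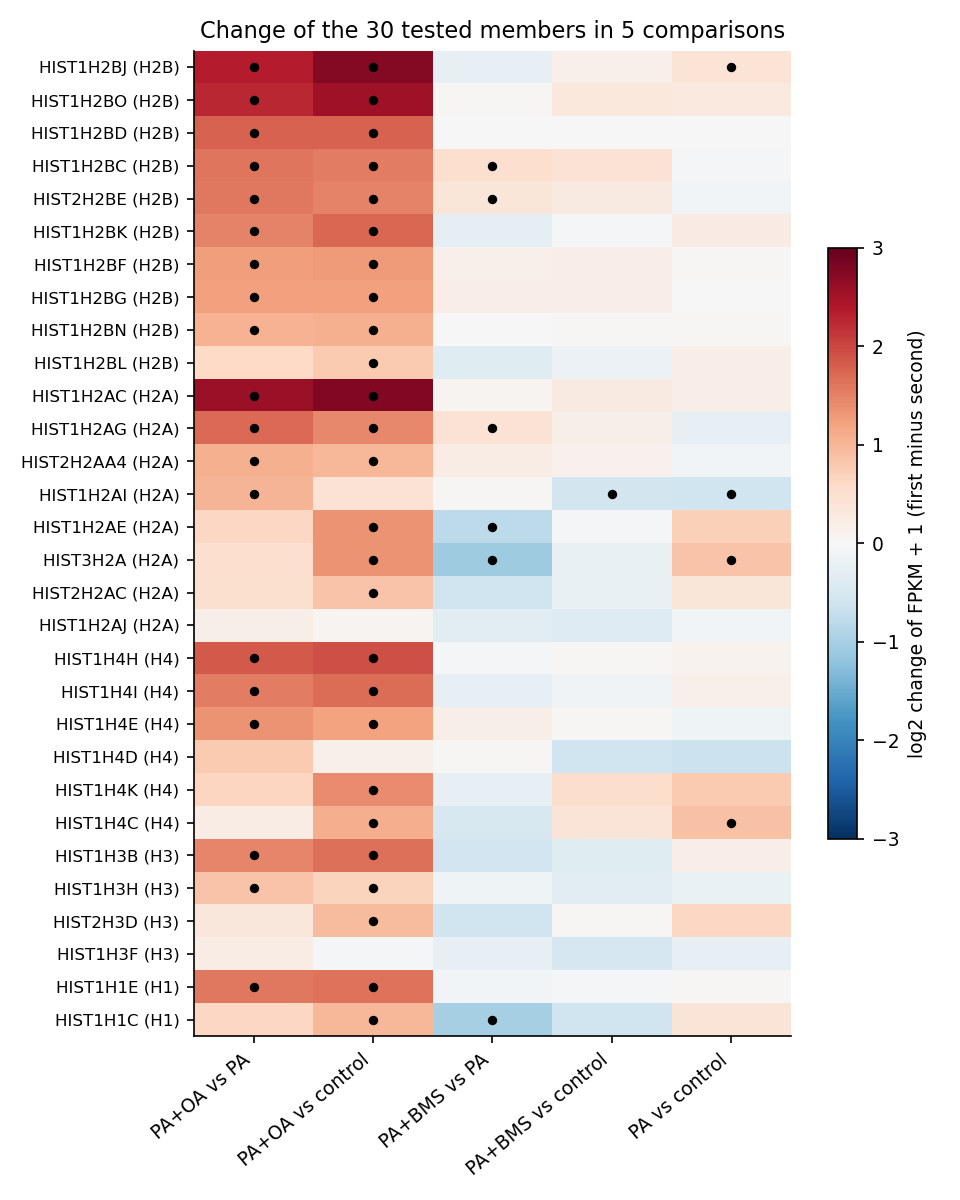
Colour gives the log2 change of FPKM + 1 for the 30 tested members (rows, by class) in 5 comparisons (columns, first group minus second), and a dot marks an adjusted p under 0.05. The columns for PA+OA hold 19 and 26 dots, all for higher levels, while the other 3 columns hold 6, 1 and 4 dots of either direction. The 10 members that passed the filter only through PA+OA hold 7 of the 19 dots, 9 of the 26 and 0 of the others, so the filter favours the PA+OA columns. Shares of all genes called differ between the columns and are given in the text. Comparisons that share libraries are not independent.

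Genes of related function are given from 5 lists chosen with earlier results known, by their counts in PA+OA against PA, where 4.01% of all genes were called higher and 3.91% lower. Of 10 tested replacement histones, which are made outside the clusters and carry poly(A) tails, 3 were higher and 0 lower (1 at an unadjusted p under 0.05, 0 with voom), with a median log2 change of 0.13 against -0.0024 for all genes. H1F0, the linker histone of cells that have stopped dividing, was at 297 ± 31.6 FPKM in PA+OA, 61.7 ± 4.93 in PA+BMS, 65.5 ± 2.51 in PA and 43.8 ± 3.92 in control (SD, n = 3 each), a log2 change over PA of 2.16, adjusted p = 1.26e-06. H1FX, another linker histone, was at 558 ± 187 FPKM in PA+OA and 241 ± 26.9 in PA (1.16, adjusted p = 0.0105), with 128 ± 33.1 in PA+BMS and 141 ± 19.3 in control. H3F3B, which encodes the replacement histone H3.3, was at 92.7 ± 7.42 FPKM in PA+OA and 59.4 ± 1.01 in PA (0.63, adjusted p = 0.00349).

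Of 20 tested genes of histone pre-mRNA processing and histone gene transcription, 1 was higher and 0 lower (0 also at an unadjusted p under 0.05 and with voom), with a median log2 change of 0.099. It was SLBP, at 64.3 ± 6.68 FPKM in PA+OA, 45.4 ± 5.35 in PA+BMS, 41.4 ± 5.84 in PA and 52.5 ± 4.48 in control (0.63, adjusted p = 0.0160). ZNF473, a zinc finger protein of the U7 snRNP pathway, followed at 5.44 ± 0.672 FPKM in PA+OA and 3.73 ± 0.281 in PA and was not called (0.44, adjusted p = 0.0651), nor was HINFP, a transcription factor of H4 genes (0.28, adjusted p = 0.295). Of 25 tested genes of 3′ end cleavage, polyadenylation and nuclear RNA decay, 2 were higher and 2 lower, with a median log2 change of -0.0045. ZCCHC8, a subunit of the nuclear exosome targeting complex, was at 3.36 ± 0.451 FPKM in PA+OA and 1.87 ± 0.154 in PA (0.60, adjusted p = 0.00381), CSTF3, a cleavage stimulation factor subunit, at 7.85 ± 0.776 in PA+OA and 4.66 ± 0.132 in PA (0.64, adjusted p = 0.00480), and SRRT, which links the cap-binding complex to RNA decay, at 28.2 ± 4.06 in PA+OA and 40.9 ± 2.43 in PA (-0.53, adjusted p = 0.0130). The other lower gene was PABPC4, a cytoplasmic poly(A) binding protein, at 37.7 ± 5.07 FPKM in PA+OA and 50.4 ± 2.91 in PA (-0.42, adjusted p = 0.0442).

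Of 40 tested genes of DNA replication and S phase, SLBP among them, 4 were higher and 1 lower in PA+OA than in PA, with a median log2 change of 0.033. GMNN, an inhibitor of replication licensing, was at 37.7 ± 2.08 FPKM in PA+OA, 26.6 ± 0.804 in PA and 39.2 ± 2.29 in control (0.49, adjusted p = 0.00756 over PA), CDC6, a licensing factor, at 41.7 ± 6.65 in PA+OA and 26.5 ± 1.38 in PA (0.63, adjusted p = 0.0134), and RFC4, a clamp loader subunit, at 23.4 ± 1.70 in PA+OA and 16.5 ± 1.32 in PA (0.48, adjusted p = 0.0158). The lower gene was UHRF1, which brings the maintenance DNA methyltransferase to replicated DNA, at 17.6 ± 3.67 FPKM in PA+OA and 28.7 ± 2.30 in PA (-0.69, adjusted p = 0.0160). Of 23 tested histone chaperones, 1 was higher and 2 lower, with a median log2 change of -0.038. ASF1A was the higher one, at 9.15 ± 0.573 FPKM in PA+OA and 6.73 ± 0.173 in PA (0.39, adjusted p = 0.0146). CABIN1 and HIRA, both of the H3.3 deposition complex, were lower, CABIN1 at 8.25 ± 0.569 FPKM in PA+OA and 12.1 ± 0.912 in PA (-0.50, adjusted p = 0.00720) and HIRA at 1.72 ± 0.190 in PA+OA and 2.85 ± 0.327 in PA (-0.50, adjusted p = 0.0149).

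In PA+OA against control, where limma called 17.5% of all genes higher and 18.8% lower, 3 of 10 replacement histones were higher and 2 lower, and 3 of the 20 processing genes were higher and 3 lower. Of the 25 genes of the 3′ end list 2 were higher and 12 lower (median log2 change -0.37), of the 23 chaperones 2 and 9 (median -0.22), and of the 40 S phase genes 9 and 9. In PA against control, with 12.8% of all genes higher and 14.8% lower, 2 of 10 replacement histones were higher and 0 lower (1 lower at an unadjusted p under 0.05, 1 with voom), and 5 of 20 processing genes were higher and 4 lower. Of the 25 genes of the 3′ end list 0 were higher (0 also unadjusted and with voom) and 7 lower, of the 40 S phase genes 4 and 9, and of the 23 chaperones 3 and 10.

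In PA+BMS against PA, with 25.2% of all genes higher and 29.4% lower, 0 of 10 replacement histones were higher (0 unadjusted, 3 with voom) and 4 lower, and 5 of 20 processing genes were higher and 5 lower. Of the 25 genes of the 3′ end list 10 were higher and 5 lower, of the 40 S phase genes 10 and 10, and of the 23 chaperones 9 and 5. In PA+BMS against control, with 4.77% of all genes higher and 6.25% lower, 1 of 10 replacement histones was higher and 1 lower, 1 of 20 processing genes was higher and 0 lower (1 unadjusted, 0 with voom), and 2 of 25 genes of the 3′ end list were higher and 1 lower. Of the 40 S phase genes 1 was higher and 2 lower, and of the 23 chaperones 0 (0 also unadjusted and with voom) and 1. These comparisons share libraries, and the shares were not compared between lists. All list counts and list genes are given with PA+OA replicate 1 included.

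The other 41 members were not tested. Of these, 30 had reads but stayed under the filter. The highest value among them was 4.16 FPKM for HIST2H4B in PA+OA replicate 2, a gene whose coding windows are all shared with HIST2H4A. By class the highest were 1.05 FPKM for HIST1H1B, 1.34 for HIST2H2AB, which overlaps BOLA1, 1.36 for HIST1H2BH and 1.91 for HIST1H3J. The 6 untested H2B genes with reads include HIST2H2BF, at 0.949, 1.10 and 1.16 FPKM in PA+OA against 0.0189 to 0.110 elsewhere, HIST1H2BE, at 0.612, 0.968 and 1.22 against 0 to 0.140, and HIST3H2BB, at 0.586, 0.722 and 1.0 against 0.0253 to 0.267. These 3 were picked once their values were known. HIST4H4, the single HIST4 gene, was at 1.15, 0.706 and 0.593 FPKM in PA+OA and 0.116 to 0.478 in the other libraries. The remaining 11 members had 0 reads in all 12 libraries. They are HIST1H2AA, HIST1H2AD, HIST1H2AK, HIST1H2AM, HIST1H2BA, HIST1H2BB, HIST1H3D, HIST1H3I, HIST1H4F, HIST1H4G and HIST2H3PS2. HIST1H2AD, HIST1H2AK, HIST1H2AM, HIST1H3D and HIST2H3PS2 overlap another gene model, to which their reads may have gone, so no bound is given for them. For the other 6 a count of 0 allows levels of up to 0.384 to 0.666 FPKM (3 reads in a library, counting error only).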

How the data were processed

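RNA from 12 libraries of HepaRG cells was purified on poly-T beads and sequenced as 150-base pairs, per the labels' protocols. CASAVA, featureCounts 1.5.0-p3 and HISAT2 2.0.5 are listed in the submitters' processing notes. Neither the build nor the strand setting is stated there, and the coordinates match GRCh38 gene models. The deposited table gives FPKM per gene, computed by the authors. No further scaling between libraries is named, but the median-of-ratios factor was 1.01 in each of the 12 libraries, so the values were already scaled between them. Whole reads could be recovered from it for 100% of values within 0.001 of a whole number, and recovered reads over each library's scaling total ran from 0.879 to 1.21. Each of the 12 within-group pairs of libraries differed beyond counting error, with a chi-square of 3.63 to 74.8 for each gene on average.

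Genes with at least 1 FPKM in 3 or more libraries were tested as log2(FPKM + 1) with limma 3.58.1 (R 4.3.3, intensity trend in the variance) on all 4 groups, and p-values were Benjamini-Hochberg adjusted over all 11856 genes and called under 0.05. Every member that passed this filter is named with its values, and of the 5 lists the 3 tested genes with the smallest p in PA+OA against PA, or any gene called where a list has 5 calls or fewer. Class sums and figures used Python 3.11.15 and matplotlib 3.10.9. Alternatives were another pseudocount, no filter, library totals set equal, scaling by median of ratios, removal of a GC and length trend, voom on recovered reads, a replicate block, leaving out PA+OA replicate 1 with PA+BMS replicate 3, and leaving out each library. Of these, scaling by median of ratios used the same factor, 1.01, for every library, so it could not change a ratio of summed levels. A filter that ignores PA+OA, and leaving out PA+OA replicate 1 with the tested genes kept, were chosen after seeing the data. The members and lists were chosen with earlier results of these data known. The fits were also run on simulated data, with the same spread setting for every gene and no outlying library. Only comparisons with control were checked there, so that run cannot vouch for the calls of PA+OA against PA. No reads were realigned.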

Additional observations from a re-analysis of the deposited data

How the results depend on the processing

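The direction of PA+OA against PA and against control held for the summed level under every alternative run. Scaling by median of ratios could not change it, as its factor was the same in every library. With library totals set equal the median of all genes shifted by -0.19 in PA against control, 0.25 in PA+BMS against PA and -0.17 in PA+OA against control (against PA, the shift for PA+OA was 0.032), and the log2 ratio of the summed histone level was then 0.037, -0.066 and 1.49 in the first 3, against 0.31, -0.45 and 1.71. In the same setting the H2B sum in PA against control turned to -0.052 and the H4 sum in PA+BMS against PA to 0.075. Members called higher in PA against control numbered 0 with no filter or with voom, 1 with totals equal or with GC and length removed, 6 with PA+BMS replicate 3 left out beside PA+OA replicate 1, and 5 without PA+OA replicate 1 and the same genes, against 3. Those called higher in PA+BMS against PA numbered 0 with no filter, and in PA+BMS against control 2 without both libraries and 1 without PA+OA replicate 1 and the same genes. A filter that ignores PA+OA tests 20 members, which left 12 called over PA and 17 over control. Members called lower numbered 0 with no filter or voom in PA against control, 1 with totals equal in PA+BMS against PA, and 0 in PA+BMS against control with no filter, totals equal, GC and length removed, voom or both libraries out. Leaving out 1 library gave 10 to 20 higher in PA+OA against PA, 0 to 5 in PA against control, 0 to 3 in PA+BMS against PA, 17 to 27 in PA+OA against control and 0 to 1 in PA+BMS against control, with 0 to 0, 0 to 1, 2 to 4, 0 to 0 and 0 to 1 lower. The log2 ratio of the summed level then ran from 1.35 to 1.46, 0.25 to 0.41, -0.54 to -0.29, 1.66 to 1.81 and -0.23 to 0.02 in the same order. HIST1H2AJ turned to -0.015 over PA without PA replicate 3 (up to 0.36 without PA replicate 1), and over control to -0.036 with totals equal, -0.24 with GC and length removed and -0.13 without control replicate 3 (up to 0.28 without control replicate 1). HIST1H4C turned to -0.050 over PA in each setting without PA+OA replicate 1 (up to 0.47 without PA replicate 1), and HIST1H3F to 0.32 over control in the same settings (down to -0.33 without control replicate 2). HIST1H4D over control turned to -0.12 with GC and length removed, -0.021 with voom, -0.02 and -0.11 without PA+OA replicates 2 and 3 and -0.12 without control replicate 2 (up to 0.59 without PA+OA replicate 1). The causes of these changes were not tested. The deviations of same-numbered libraries correlated at -0.278 to 0.563, over 0.1 in 9 of 18 pairs. Those of PA+OA and control were over 0.1 for all 3 numbers, at 0.156 to 0.488, although replicate 3 of PA+OA correlated better with control replicate 2 (0.402), and no other pair of groups had all 3 over 0.1, so the numbers were not taken to pair the libraries. With the number as a replicate block the members called higher were 19 in PA+OA against PA, 4 in PA against control, 3 in PA+BMS against PA, 27 in PA+OA against control and 0 in PA+BMS against control, and 0, 1, 4, 0 and 1 were lower. The 30 members with reads that were not tested had 1 to 393 reads each over the 12 libraries.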

Other observations

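Histone-named rows annotated as pseudogenes were also read out. HIST2H2BC, a pseudogene row of the HIST2 cluster, was at 1.98, 5.85 and 7.11 FPKM in PA+OA, 0.859, 0.882 and 1.30 in PA+BMS, 0.325, 0.337 and 0.464 in PA and 0.391, 0.509 and 0.298 in control. HIST2H2BD was at 1.21, 2.68 and 3.43 FPKM in PA+OA, 0.806, 0.683 and 0.949 in PA+BMS, 0.149, 0.20 and 0.211 in PA and 0.156, 0.0939 and 0.166 in control. In both rows the 3 PA+OA libraries lay above the other 9, and the PA+BMS libraries lay between PA+OA and the PA and control libraries. HIST1H1PS1 was at 0.804, 1.19 and 1.19 FPKM in PA+OA and at most 0.296 in the other libraries. The 3 rows were picked once their values were known, and how far their reads come from similar coding genes was not tested.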
